A study of Mus musculus with 6 samples.

Results

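The genes described here are 40 spindle, kinetochore and cytokinesis genes, whose products build the mitotic spindle, tie chromosomes to it and divide the cell. They were taken from a list of names, and each was read from the array probeset annotated with that gene symbol alone, the brightest where a gene had several. All 40 had such a probeset, among 19938 genes that did. Of the 40, 36 passed a filter that left out the dimmest 25% of probesets, and these were tested among 14994 genes. Cenpi, Kif2c, Kif18a and Anln lay below the filter (a mean log2 intensity of 5.152 over all arrays) and are given as values without a test. Gene expression had been measured on MoGene 1.0 ST arrays in mouse bone marrow KSL SLAM cells, a fraction enriched for haematopoietic stem cells and sorted as negative for lineage markers, CD48 and CD41 and positive for c-Kit, Sca-1 and CD150. For 7 days the mice had been given the cytokine G-CSF (granulocyte colony-stimulating factor; 125 mcg/kg, injected under the skin 2 times a day) or PBS, the saline control. An array stands for 1 of 3 separately collected pools per treatment, with 5 to 10 animals in a pool, so it averages several mice. The labels used here give no strain, age or sex, and both groups were sorted through the same gate.

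Mitosis depends on transcripts that most cells make in quantity only from late S phase to the end of division, and that resting cells hold at low levels. Kinetochores, assembled on centromeric chromatin, capture spindle microtubules, and the spindle checkpoint delays anaphase until every kinetochore is attached. Motor proteins and bundling factors shape the spindle, and a contractile ring then separates the daughter cells. Long-term haematopoietic stem cells are known as a mostly quiescent population, and G-CSF is the cytokine used to raise neutrophil output and to mobilise stem cells into the blood. The comparison asks how the level of these transcripts in the sorted fraction differed by treatment. In a bulk sample, a smaller number of dividing cells and less transcript per dividing cell cannot be told apart.

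Promoters of mitotic genes are known for 2 short elements, the cell cycle genes homology region (CHR), bound by the MuvB complexes DREAM and MMB, and the CCAAT box, bound by NF-Y. The CHR was searched as TTTGAA or TTCGAA and the box as CCAAT, on both strands, in windows from 250 bases before to 50 bases after the RefSeq start (GRCm38.p6), and matches of the 2 motifs may share end bases. A window was held for 34 of the 40 genes, and none was held for Aurkb, Dlgap5, Incenp, Kif20a, Spc24 and Tpx2. The CHR letters were in the windows of 24 of these 34 genes (70.6%), against 21.7% of all 27025 genes with a window and 16.7% of the 11870 genes both tested and with a window. CCAAT was in 23 of the 34 (67.6%), against 41.1% of all genes, and at 2 or more places in 14 (41.2%), against 13.3%. Birc5, Kif18a, Mad2l1, Nuf2, Nusap1, Plk4 and Tacc3 had neither. A match describes the letters only and is no measured binding site.

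The 150 bases just before the start are shown for 6 genes, because they had the smallest p-values among the genes with a match and a window. Each reads 5′ to 3′ on the gene's own strand, upstream of the transcript, with matches in capitals.
Bub1 (chr2:127831860-127832009, minus strand): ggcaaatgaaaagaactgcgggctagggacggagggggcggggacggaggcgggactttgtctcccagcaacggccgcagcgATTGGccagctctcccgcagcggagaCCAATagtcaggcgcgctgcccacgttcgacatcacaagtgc
Top2a (chr11:99024190-99024339, minus strand): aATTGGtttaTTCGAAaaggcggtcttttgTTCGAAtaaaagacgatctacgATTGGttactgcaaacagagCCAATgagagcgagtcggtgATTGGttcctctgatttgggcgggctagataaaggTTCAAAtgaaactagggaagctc
Cenpe (chr3:135212413-135212562, plus strand): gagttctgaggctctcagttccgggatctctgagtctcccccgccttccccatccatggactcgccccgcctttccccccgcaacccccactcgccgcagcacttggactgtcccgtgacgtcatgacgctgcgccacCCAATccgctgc
Mki67 (chr7:135716380-135716529, minus strand): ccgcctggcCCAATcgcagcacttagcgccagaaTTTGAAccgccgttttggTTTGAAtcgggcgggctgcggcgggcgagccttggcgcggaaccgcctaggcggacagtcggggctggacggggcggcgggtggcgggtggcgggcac
Cenpf (chr1:189688087-189688236, minus strand): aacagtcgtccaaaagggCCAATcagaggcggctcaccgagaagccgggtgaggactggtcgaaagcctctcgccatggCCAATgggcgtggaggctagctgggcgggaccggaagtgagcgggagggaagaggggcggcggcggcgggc
Plk1 (chr7:122159285-122159434, plus strand): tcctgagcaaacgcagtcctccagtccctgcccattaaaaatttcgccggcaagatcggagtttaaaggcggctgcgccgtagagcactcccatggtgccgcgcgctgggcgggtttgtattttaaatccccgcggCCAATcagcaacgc

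The Top2a window was the densest of the 34, with 6 CCAAT boxes and 4 CHR matches, of which 4 and 3 lie in the stretch shown. Mki67 had a pair of CHR matches, 116 and 98 bases before its start. Bub1 had boxes 68 and 42 bases before its start, and its CHR letters begin at base 15 of the transcript. In Cenpf and Plk1 the CHR letters also lie after the start, at bases 3 and 31, and the Cenpe window held no CHR. Among the 9 genes whose G-CSF arrays all lay above their PBS arrays (below), 7 had a window, of which 6 held the CHR and all 7 held CCAAT. Among the other 27 genes with a window, 18 held the CHR and 16 held CCAAT. The 24 genes with a CHR had a median log2 difference of 0.29 (range -0.48 to 1.20), and the 10 without had one of 0.04 (range -0.79 to 0.69). For CCAAT the medians were close, at 0.21 in the 23 genes with it (range -0.48 to 1.20) and 0.18 in the 11 without (range -0.79 to 0.52). Anln, Cenpi, Kif2c and Kif18a, which lay below the filter, are included in these medians. The ranges overlapped widely, and no test was made.

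More of the mitotic genes were higher with G-CSF than lower, and the higher ones were spread over the checkpoint, kinetochore, spindle and chromosome genes. Wide positive differences were measured in the proliferation marker Mki67 (2.11-fold), the spindle factor Dlgap5 (1.89-fold), the mitotic kinase Plk1 (1.77-fold) and the checkpoint kinase gene Bub1. For Bub1 the log2 difference was 1.20 as measured and 0.81 with arrays under the filter's limit raised to it, since 2 of its 3 PBS arrays read under that limit. By limma, 0 of the 36 genes tested passed at an adjusted p under 0.05 over all 14994 genes (smallest adjusted p = 0.266, Bub1), where 0.0267% of all genes passed as higher. At an unadjusted p under 0.05, 8 of the 36 were higher and 0 were lower, against 2.73% of all genes higher and 3.3% lower. The groups did not overlap in 9 of the 36, each with G-CSF above, against 5.77% of all genes, and 0 had G-CSF below, against 5.05%. Positive differences were measured in 25 of the 36, against 50.3% of all genes. The median log2 difference was 0.21, beside 0.002 over all genes tested. It was 0.38 without PBS replicate 3 and 0.42 with the dimmest 50% of probesets left out, which kept 27 of the genes. Without PBS replicate 2 the genes with G-CSF below numbered 3. Groups separate more easily with fewer arrays, and the share of all genes in that setting is not given here. Counted over all 40 genes without the filter, 27 differences were positive and 9 genes had all G-CSF arrays above, with a median of 0.20. Without the filter these shares were 52% and 5.58% of all genes, and 0 of the 40 genes had all G-CSF arrays below, against 4.44%. Bub1 and Kif4 passed the filter although their PBS means lay under it, so the counts over the 36 are a description. The 95% intervals had a median half-width of 0.54 on the log2 scale, so with 3 arrays per group a single gene's difference was known only to about that width. These intervals are not adjusted for the number of genes tested. At the adjusted threshold even larger differences were not called, such as Bub1 at 1.20.

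**Figure D1:**
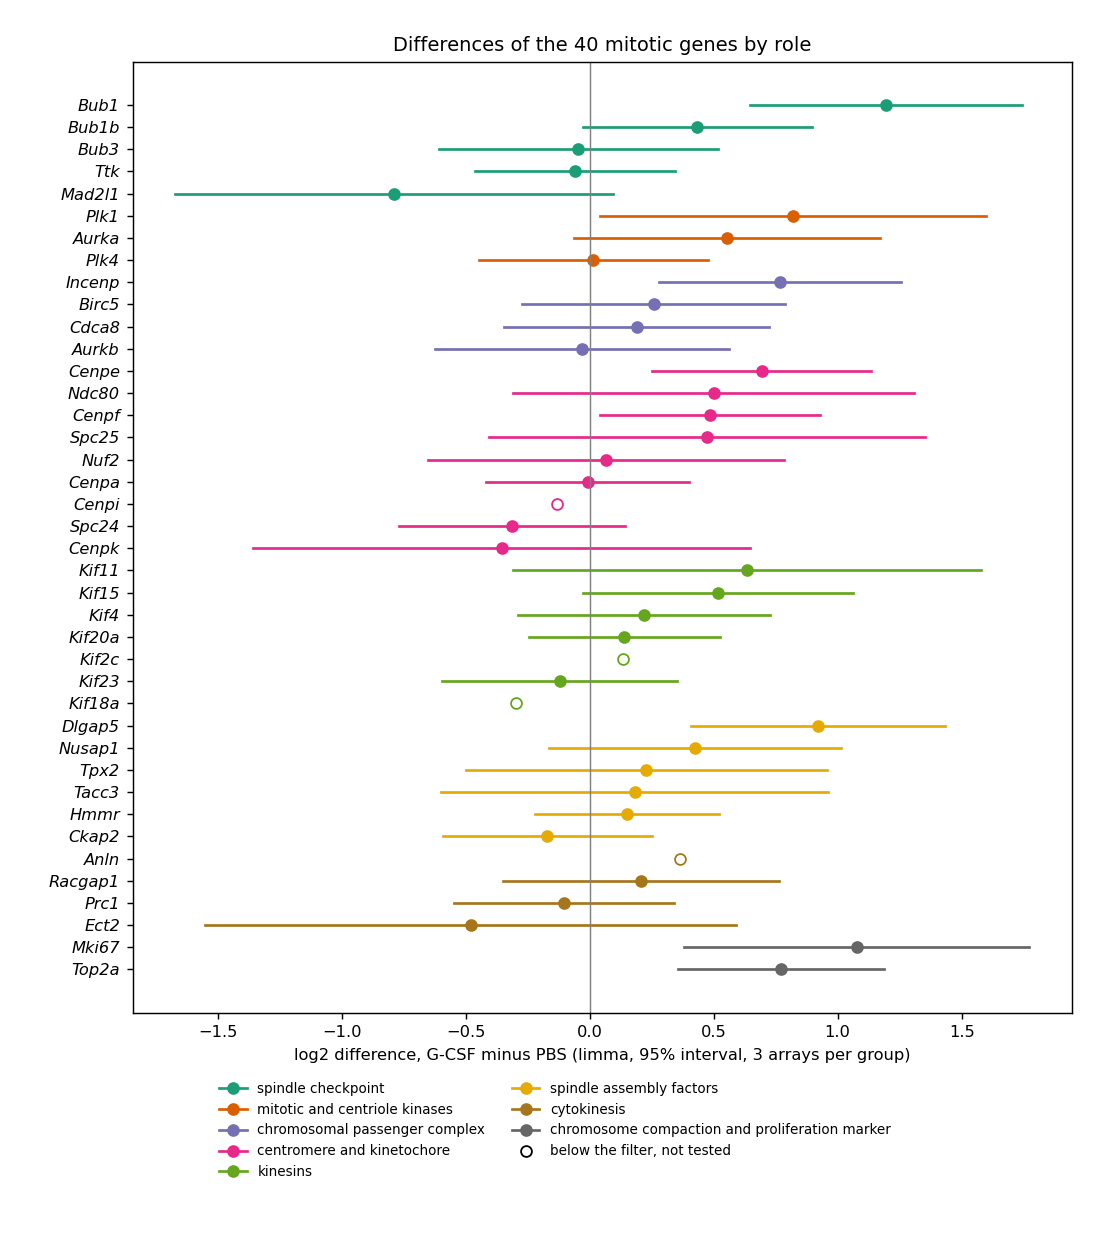
Log2 difference (G-CSF minus PBS) of each of the 40 genes with limma's 95% interval, coloured by role, from 3 arrays per group; open points are the 4 genes below the filter. The intervals of 8 genes lie wholly above 0, among them Mki67 at 1.08 and Bub1 at 1.20 (0.81 with dim arrays raised to the filter's limit), and none of the 36 lies wholly below; Mad2l1 at -0.79 is the lowest point.

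The 5 spindle checkpoint genes did not move together. Bub1 encodes a kinase that recruits checkpoint proteins to unattached kinetochores. Its log2 intensities were 5.25, 4.64 and 4.52 on PBS replicates 1 to 3 and 6.19, 5.78 and 6.03 on G-CSF replicates 1 to 3, the order used throughout. The groups did not overlap, and the lowest G-CSF array lay 0.53 above the highest PBS array. The difference was 1.20 (SE 0.23, 95% interval 0.65 to 1.74, limma adjusted p = 0.266). The PBS replicates 2 and 3 read under the filter's limit, and with such arrays raised to it the difference was 0.81. Bub1b encodes BubR1, a subunit of the complex that inhibits the anaphase-promoting complex. It read 5.77, 5.81 and 5.99 with PBS and 6.16, 6.07 and 6.64 with G-CSF, again without overlap but with a gap of only 0.08, and differed by 0.43 (SE 0.20, unadjusted p = 0.0615 by limma).

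Mad2l1, which encodes the Mad2 protein that binds and holds Cdc20, went the other way in its means. It read 8.04, 9.14 and 7.85 with PBS and 7.65, 7.93 and 7.09 with G-CSF, so that G-CSF replicate 2 lay above PBS replicate 3. The difference was -0.79 (SE 0.38, 95% interval -1.67 to 0.10, limma adjusted p = 0.858) and was -0.39 without PBS replicate 2, the array with the highest value. Bub3, the partner of Bub1 and BubR1, differed by -0.05 (SE 0.24) and Ttk, the kinase Mps1 at the head of the checkpoint, by -0.06 (SE 0.17). Both overlapped between groups. Their 95% intervals ran from -0.61 to 0.52 and from -0.46 to 0.34. Whether Bub1 differed more than the other checkpoint genes was not tested.

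Of the kinases that act on centrosomes and the spindle, Plk1 differed most. Polo-like kinase 1 acts from centrosome maturation to cytokinesis. Its gene read 5.90, 5.63 and 5.92 with PBS and 6.25, 7.43 and 6.24 with G-CSF. All G-CSF arrays lay above the PBS arrays, but replicate 2 stood more than 1 log2 unit above the other two. The difference was 0.82 (SE 0.33, 95% interval 0.04 to 1.60, limma adjusted p = 0.796), and 0.43 without G-CSF replicate 2. Aurka, the centrosomal Aurora kinase that drives spindle assembly, read 6.26, 6.73 and 6.74 with PBS and 6.70, 7.59 and 7.09 with G-CSF, with the same replicate highest. It differed by 0.55 (SE 0.26, adjusted p = 0.857), and G-CSF replicate 1 lay below the PBS replicates 2 and 3. Without G-CSF replicate 2 the difference was 0.32. Plk4, the kinase that starts centriole duplication, read 6.62, 7.03 and 7.18 with PBS and 7.07, 7.04 and 6.76 with G-CSF. Its difference of 0.02 (SE 0.20, interval -0.45 to 0.48) had no stable sign, at -0.144 without PBS replicate 1 and 0.133 without PBS replicate 3.

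The chromosomal passenger complex joins Aurora kinase B to INCENP, survivin and borealin, and corrects wrong kinetochore attachments before it moves to the midzone for cytokinesis. Its 4 genes ranged from -0.03 to 0.77. Incenp, the scaffold, read 5.86, 5.96 and 6.01 with PBS and 6.31, 7.00 and 6.83 with G-CSF. The 3 PBS values lay close together (SD 0.08) and all G-CSF arrays were above them, a difference of 0.77 (SE 0.21, 95% interval 0.28 to 1.26, limma adjusted p = 0.479). Birc5, which encodes survivin, read 6.77, 6.89 and 6.75 with PBS and 6.70, 6.98 and 7.51 with G-CSF. Only G-CSF replicate 3 was clearly higher, the difference was 0.26 (SE 0.23), and it was 0.035 without that replicate and 0.44 without G-CSF replicate 1. Aurkb, the kinase itself, read 6.35, 6.51 and 6.17 with PBS and 6.60, 6.56 and 5.78 with G-CSF. It differed by -0.03 (SE 0.25, interval -0.62 to 0.56), with its lowest value on the array where Birc5 was highest. It was 0.24 without that array, and omission of G-CSF replicate 1 gave -0.175 and of replicate 2 -0.155. Of the PBS arrays, omission of replicate 2 gave 0.053 and of replicate 3 -0.119. Cdca8, which encodes borealin, differed by 0.19 (SE 0.23) and overlapped between groups.

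Among the 9 centromere and kinetochore genes, those of 2 large proteins of the outer corona did not overlap between groups. Cenpe encodes a kinesin that moves chromosomes to the spindle equator. It read 5.90, 5.84 and 6.23 with PBS and 6.76, 6.43 and 6.86 with G-CSF, without overlap, and differed by 0.69 (SE 0.19, 95% interval 0.25 to 1.14, limma adjusted p = 0.479). Cenpf, a protein that gathers at kinetochores in late G2, read 6.06, 5.50 and 5.83 with PBS and 6.38, 6.15 and 6.32 with G-CSF. The groups were separated by 0.09, and the difference was 0.49 (SE 0.19, interval 0.04 to 0.93, adjusted p = 0.766).

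The 4 subunits of the Ndc80 complex, the main microtubule attachment of the kinetochore, ranged from -0.31 to 0.50. Ndc80 differed by 0.50 (SE 0.34) and Spc25 by 0.47 (SE 0.37), while Nuf2 differed by 0.07 (SE 0.31) and Spc24 by -0.31 (SE 0.19). Each of the 4 overlapped between groups. The 95% intervals were -0.31 to 1.31 for Ndc80 and -0.77 to 0.14 for Spc24, and whether the subunits differed from each other was not tested. Cenpa, the histone H3 variant that marks the centromere, differed by -0.01 (SE 0.17), with an interval of -0.42 to 0.40. Cenpk, of the inner kinetochore network, was the most variable of the 36 within PBS (SD 0.94). It read 6.81, 5.59 and 7.44 with PBS and 6.33, 6.17 and 6.29 with G-CSF, a difference of -0.36 (SE 0.43) that was -0.87 without PBS replicate 2 and 0.06 without PBS replicate 3. Cenpi lay between 4.51 and 4.87 on all arrays, below the filter.

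None of the 7 kinesin genes separated the groups. Kif15, a plus-end motor that helps keep spindle poles apart, had the smallest p. It read 5.75, 5.77 and 6.21 with PBS and 6.02, 6.66 and 6.60 with G-CSF, a difference of 0.52 (SE 0.23, 95% interval -0.03 to 1.06, limma adjusted p = 0.851). Kif11, which encodes Eg5, the motor that pushes the poles apart, read 6.74, 5.69 and 6.96 with PBS and 7.75, 6.74 and 6.81 with G-CSF. The low PBS replicate 2 and the high G-CSF replicate 1 set its difference of 0.63 (SE 0.40). Kif4, a chromosome-bound motor, differed by 0.22, Kif20a, a motor of the cleavage furrow, by 0.14, and Kif23, a subunit of centralspindlin, by -0.12. Kif2c, a depolymerase at centromeres, and Kif18a, a motor that dampens chromosome movements, lay below the filter, with measured differences of 0.14 and -0.30. Kif18a read 4.44, 4.40 and 4.79 with PBS and 4.45, 4.91 and 3.38 with G-CSF, so its negative mean came from G-CSF replicate 3.

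Dlgap5 was the spindle assembly gene whose groups did not overlap. It encodes HURP, which stabilises the kinetochore fibres next to chromosomes. The values were 5.37, 5.57 and 6.01 with PBS and 6.51, 6.82 and 6.39 with G-CSF, with a gap of 0.38 between the groups. The difference was 0.92 (SE 0.22, 95% interval 0.41 to 1.43, limma adjusted p = 0.378). Nusap1, a microtubule bundling protein, differed by 0.42 (SE 0.25), and Tpx2, the activator of Aurora kinase A, by 0.23 (SE 0.31). Tacc3, of the inter-microtubule bridges, differed by 0.18 and Hmmr, a spindle pole protein, by 0.15. Ckap2, a microtubule-associated protein, read 6.003, 5.70 and 6.20 with PBS and 5.72, 5.75 and 5.92 with G-CSF, a difference of -0.17 (SE 0.18) that was -0.305 without PBS replicate 2 and -0.054 without PBS replicate 3. In these 5 genes the groups overlapped.

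The cytokinesis genes had no common direction. Ect2, the exchange factor that activates RhoA at the cleavage furrow, read 6.51, 6.06 and 5.21 with PBS and 6.32, 5.13 and 4.89 with G-CSF. Values ran over more than 1 log2 unit in each group, and the difference of -0.48 (SE 0.46, 95% interval -1.55 to 0.59) lay within that spread. The G-CSF replicates 2 and 3 read under the filter's limit, and with them raised to it the difference was -0.38. Leaving out PBS replicate 1 gave -0.19 and leaving out PBS replicate 3 gave -0.84. Of the G-CSF arrays, omission of replicate 1 gave -0.92, of replicate 2 -0.32 and of replicate 3 -0.20. Racgap1, which with Kif23 forms centralspindlin, differed by 0.21 (SE 0.24), and Prc1, the midzone bundling protein, by -0.10 (SE 0.19). The G-CSF arrays of Prc1 differed little (SD 0.02) and lay inside the PBS range. Anln, which encodes the ring scaffold anillin, fell below the filter at 5.02, 4.30 and 5.46 with PBS and 5.67, 4.85 and 5.37 with G-CSF.

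Top2a and Mki67, which act on chromosomes throughout division, both separated the groups. Top2a encodes topoisomerase II alpha, which untangles sister chromatids. It read 7.72, 7.47 and 7.96 with PBS and 8.38, 8.54 and 8.55 with G-CSF, a difference of 0.77 (SE 0.18, 95% interval 0.36 to 1.19, limma adjusted p = 0.352) with a gap of 0.42. A second, dimmer Top2a probeset below the filter read 4.85, 5.34 and 4.88 with PBS and 5.06, 4.32 and 5.06 with G-CSF. It differed by -0.21 with overlapping groups, so the probesets disagree. Mki67 encodes Ki-67, the surfactant of mitotic chromosomes used as a marker of cycling cells. It read 7.45, 6.41 and 7.29 with PBS and 8.05, 7.92 and 8.40 with G-CSF. The lowest G-CSF array lay 0.48 above the highest PBS array, and the difference was 1.08 (SE 0.30, interval 0.38 to 1.77, adjusted p = 0.486). Without PBS replicate 2, the lowest array, it was 0.76.

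**Figure D2:**
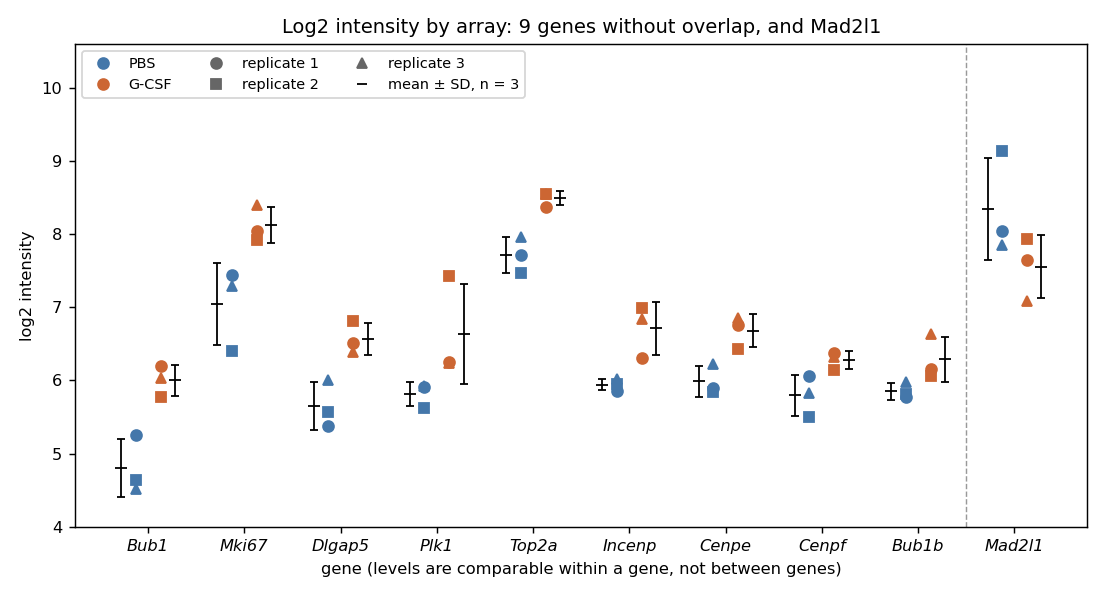
Log2 intensity on each array (blue PBS, orange G-CSF, symbols for replicates, black mean ± SD, n = 3) for the 9 genes without overlap between groups, and for Mad2l1 right of the dashed line. The gaps between groups run from 0.08 in Bub1b to 0.53 in Bub1, and G-CSF replicate 2 of Plk1 at 7.43 lies far above the other G-CSF arrays.

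Across arrays, the genes varied more among PBS than among G-CSF samples. The PBS SD exceeded the G-CSF SD in 23 of the 36 genes, against 49.6% of all genes tested, and the median SD was 0.305 among the PBS and 0.23 among the G-CSF arrays. Over all genes tested these medians were 0.23 in each group. PBS replicate 2 held the lowest value of all 6 arrays in 18 of the 40 genes, among them Mki67, Kif11, Spc25 and Tpx2. In Mad2l1 and Nuf2 the same array held the highest value, so it was not low in every mitotic gene. PBS replicate 1 was lowest in 11 genes and PBS replicate 3 in 3. Of the G-CSF arrays, replicate 3 was highest of the 6 in 11 genes, replicate 2 in 9 and replicate 1 in 6, and PBS replicate 3 was highest in 8. Averaged over the 40 genes, the log2 intensity was 6.17, 5.98 and 6.30 on the PBS arrays and 6.39, 6.43 and 6.35 on the G-CSF arrays. The groups did not overlap in this mean, with PBS replicate 3 closest to the G-CSF arrays. Array means of the lists of other spindle, mitotic entry and exit, condensin and cohesin, DREAM and MuvB, and replication genes (below) overlapped between groups. Those of the neutrophil and progenitor marker lists did not.

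**Figure D3:**
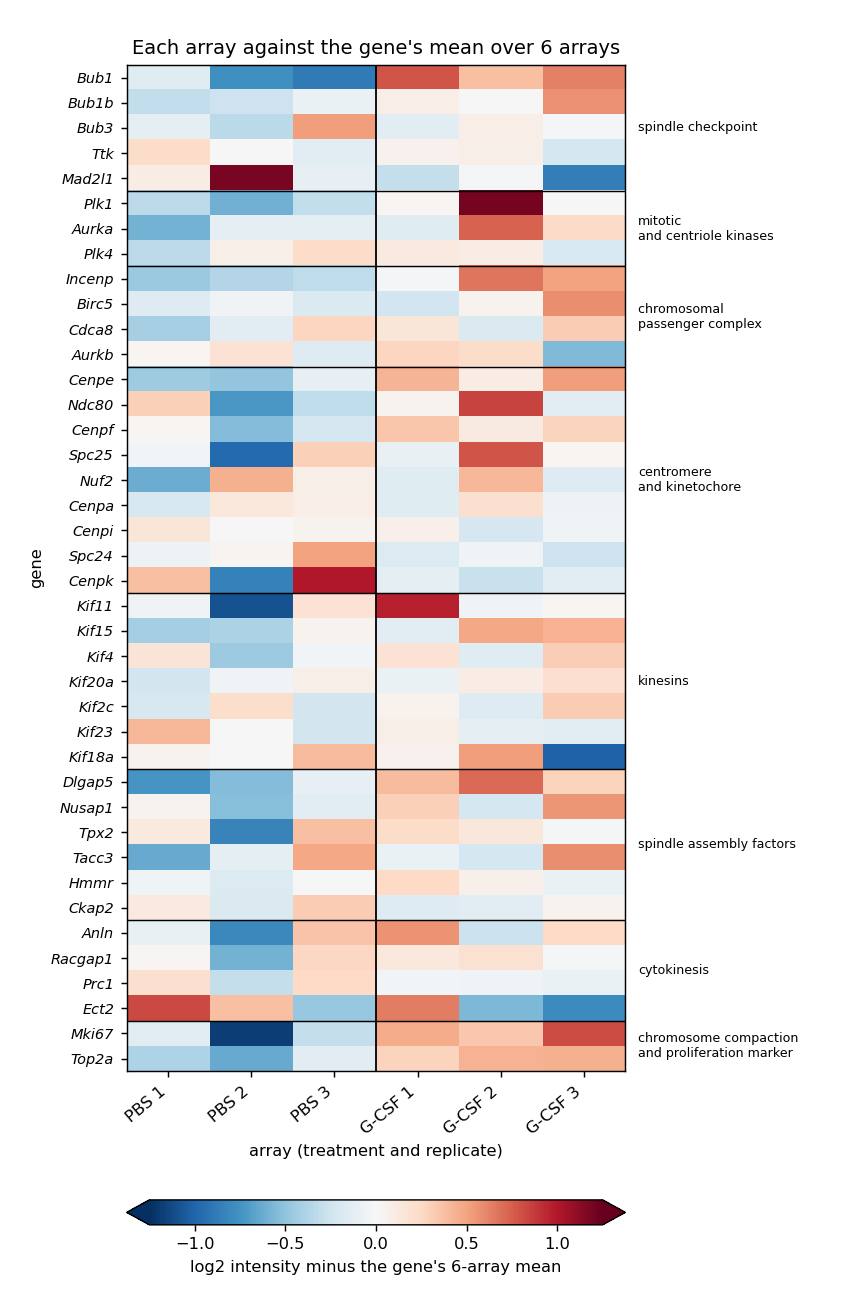
Log2 intensity of each of the 40 genes on each array minus that gene's mean over the 6 arrays (red higher, blue lower), grouped by role, with PBS left of the black line. Bub1, Dlgap5, Mki67 and Top2a are red across the G-CSF columns, while PBS replicate 2, lowest of all arrays in 18 genes, is mostly blue except in genes such as Mad2l1, where it reads 9.14.

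Other genes of mitosis were taken from further lists, which were not tested against the 40 genes. Of 43 tested genes in a list of other spindle, kinetochore and centrosome genes, 0 passed over all genes by limma. At an unadjusted p under 0.05, G-CSF was higher in 2 and lower in 2, beside 2.73% and 3.3% of all genes. Positive differences numbered 32 of 43, against 50.3% of all genes, and the median was 0.09. All G-CSF arrays lay above in 3 (6.98%, against 5.77% of all genes) and below in 1 (2.33%, against 5.05%). Kif14, a kinesin of the midbody, differed by 0.85 (SE 0.27) and Spdl1, the adaptor spindly, by 0.58 (SE 0.21). Spdl1 passed the filter although its PBS mean of 5.08 lay under the limit, with 2 PBS arrays under it. Kif14 had 1 PBS array under the limit. These 2 genes were the list's higher ones at the unadjusted p, so that count rests partly on dim PBS values. Haus1, a subunit of the augmin complex that branches spindle microtubules, differed by -1.21 (SE 0.26, adjusted p = 0.316), with all G-CSF arrays below the PBS arrays. Of 20 tested genes of mitotic entry and exit, 14 had positive differences (70%, against 50.3% of all genes), with a median of 0.17. All G-CSF arrays lay above in 4 (20%, against 5.77% of all genes) and below in 0 (against 5.05%). At an unadjusted p under 0.05 by limma, 1 was higher, beside 2.73% of all genes. That gene was Ube2c, a ubiquitin-conjugating enzyme of the anaphase-promoting complex, at 0.75 (SE 0.23). Ccna2, cyclin A2, differed by 0.85 (SE 0.37) and Cdc25c, a phosphatase that activates Cdk1, by 0.32 (SE 0.18), while Cdk1 itself differed by 0.002 (SE 0.18). The transcription factor genes Foxm1 and Mybl2, whose products activate mitotic genes, differed by 0.23 (SE 0.14) and -0.33 (SE 0.24). Foxm1 did not overlap between groups, and Mybl2 did. The condensin and cohesin genes were evenly split, with 7 positive and 6 negative differences among 13. At an unadjusted p under 0.05 by limma, 1 was higher, beside 2.73% of all genes. That was Ncapd2, a condensin I subunit, at 0.48 (SE 0.16), while Ncaph, its kleisin, differed by 0.58 (SE 0.28) and Stag1, a cohesin subunit, by -0.43 (SE 0.19).

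In the list of the DREAM and MuvB complexes, which repress or activate genes through the CHR, 0 of 11 passed. At an unadjusted p under 0.05 by limma, 1 was lower, beside 3.3% of all genes. Rbl2 encodes the pocket protein p130 of the repressive complex in resting cells. Its mean log2 intensity was 7.96 ± 0.07 with PBS and 7.34 ± 0.03 with G-CSF (SD, n = 3 each), without overlap. The difference was -0.62 (SE 0.14, 95% interval -0.95 to -0.29, limma adjusted p = 0.35). Lin52 differed by -0.31 and Tfdp1 by 0.29. DNA replication genes, needed in the preceding phase of the cycle, had 19 positive and 15 negative differences among 34 tested, with a median of 0.04. At an unadjusted p under 0.05 by limma, 0 were higher and 0 lower, beside 2.73% and 3.3% of all genes. Mcm2, a subunit of the replicative helicase, differed by -0.26 (SE 0.17) and Pcna, the sliding clamp, by -0.09 (SE 0.24). The replication genes with the smallest p were Chaf1b (-0.36), Cdt1 (0.39) and Tyms (0.31). Whether the mitotic and replication lists differed from each other was not tested.

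**Figure D4:**
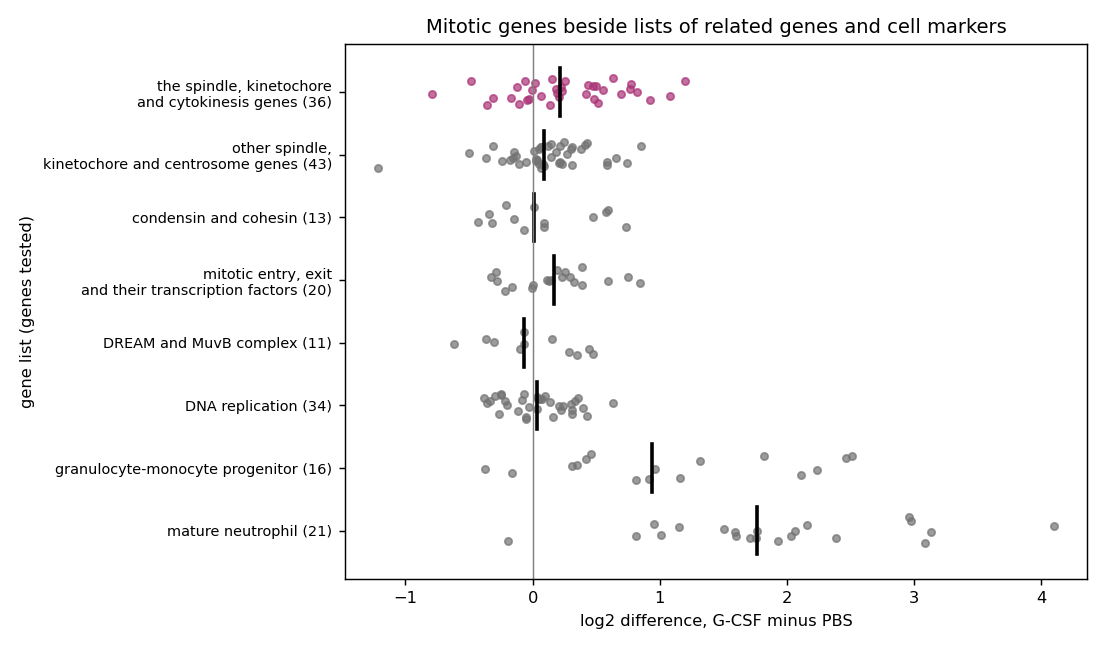
Log2 difference (G-CSF minus PBS) of every gene tested in 8 lists, one point per gene with random vertical scatter, black bars at the medians. The 36 spindle, kinetochore and cytokinesis genes (top, median 0.21) lie between -0.79 and 1.20, and the granulocyte-monocyte progenitor (median 0.94) and mature neutrophil (median 1.76) markers extend far to the right.

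Markers of granulocytic cells were also higher on the G-CSF arrays. Of 21 measured mature neutrophil markers, 19 were higher at an unadjusted p under 0.05 by limma, beside 2.73% of all genes. Lower ones numbered 0, beside 3.3%. The summed intensity of the list was 10561 to 18736 on PBS and 33823 to 45719 on G-CSF arrays. Of 16 granulocyte-monocyte progenitor markers, 12 were higher and 0 lower, beside the same shares of all genes. Their summed intensity was 2466 to 3456 on PBS and 4757 to 9353 on G-CSF arrays. The leading markers were Ltf at 2.16, Stfa2 at 2.96 and Ifitm6 at 3.09 for neutrophils, and Ctsg at 2.51, Hp at 2.11 and Mpo at 2.47 for progenitors, 0 of them past an adjusted p of 0.05. Stfa2 passed the filter although its PBS mean of 4.67 lay under the limit, with 2 PBS arrays under it. Of the defining markers, S100a8, S100a9, Ltf, Mpo and Elane read above the filter's limit on all 6 arrays. The progenitor list had the log2 means 6.88, 6.72 and 7.23 on the PBS and 7.76, 8.47 and 7.84 on the G-CSF arrays. As in the mean of the 40 mitotic genes, PBS replicate 2 was lowest and PBS replicate 3 highest of the PBS arrays, and G-CSF replicate 2 was highest of all. The DNA replication list had the same order (6.84, 6.59 and 7.01 on PBS, 6.70, 7.17 and 6.68 on G-CSF arrays). So did the condensin and cohesin list and the list of other spindle, kinetochore and centrosome genes. The order was thus not particular to the progenitor markers. The lowest G-CSF array was replicate 1 in the progenitor list and replicate 3 in the mitotic genes. The neutrophil list had another order among the PBS arrays, with log2 means of 7.36, 8.14 and 7.96 on PBS and 9.44, 10.18 and 9.63 on G-CSF arrays, so that PBS replicate 2 was the highest of its group. The negative differences in these lists were Ly6g at -0.19 among the neutrophil markers, and Gstm1 at -0.37 and Cd34 at -0.16 among the progenitor markers. Whether these transcripts came from other cells in the pools or from the gated cells themselves cannot be told apart in bulk samples. Their relation to the mitotic differences was not tested. Of 11 megakaryocyte and platelet markers, 4 were lower and 1 higher at an unadjusted p under 0.05 by limma, beside 3.3% and 2.73% of all genes. The leading ones were Pf4 at -1.92, Mmrn1 at -1.52 and Rab27b at -0.72. The list's sum was 955 to 1177 on PBS and 712 to 744 on G-CSF arrays. Of 8 erythroid markers tested 1 was lower and 0 higher, beside the same shares of all genes. Sums over the 10 that had a probeset were 1207 to 1772 on PBS and 986 to 1151 on G-CSF arrays. Car2 at -0.78, Car1 at -0.98 and Tfrc at -0.40 had the smallest p. Of 6 B lymphocyte markers tested 1 was lower, Cd72 at -1.09, where 3.3% of all genes were lower. Among 5 T and NK lymphocyte markers tested, 0 differed at that level in either direction, so the B and T counts rest on few genes. Their sums overlapped between groups, at 568 to 1109 and 496 to 926 over 10 B markers with a probeset and 415 to 520 and 433 to 520 over 11 T and NK markers. RMA values are never 0, so no marker was at 0.

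The gate's own markers were present. Kit, Slamf1 (CD150), Procr, Hlf and Mecom read above the filter's limit on all 6 arrays, while Ly6a (Sca-1) had no probeset of its own and was not analysed here. Of 14 tested markers of the gate and of stem cell identity, 13 had negative differences (median -0.18), where 50.3% of all genes had positive ones. At an unadjusted p under 0.05 by limma, 2 were lower, beside 3.3% of all genes. These were Kit at -0.98 (SE 0.23) and Tek at -0.48 (SE 0.19). Cd48, which the gate excludes, read under the limit on 1 PBS and 1 G-CSF array and differed by -0.11 (SE 0.46). Itga2b (CD41), which the gate also excludes, read above the limit on all 6 arrays, between 6.18 and 6.51, and differed by -0.16 (SE 0.15). The T lymphocyte gene Cd3e likewise read above it on all 6 arrays and differed by 0.07 (SE 0.19). The arrays had median intensities of 56.2 to 61.7. Across the genes tested, pairs of arrays correlated with a Spearman's rho of 0.861 to 0.895 in the same group and 0.836 to 0.892 in different groups.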

How the data were processed

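The deposited values are probeset intensities on a linear scale, which the authors made with RMA per the submitters' processing notes. Which software did this, and on which set of arrays, is not stated in those notes. Because the values were linear, log2 was computed before any test. Of 35554 probesets, 21789 were annotated with 1 gene symbol, 1621 with several and 12144 were not listed; only the first were used. Probesets of the 25% with the lowest mean over all 6 arrays were left out, and the brightest stood for each of 14994 genes. Groups were compared with limma 3.58.1 (R 4.3.3; lmFit and eBayes, no covariate), with two-sided p-values adjusted over all these genes by Benjamini-Hochberg. The script was tested on simulated data. Figures were made in matplotlib 3.10.9, and promoters were read from a RefSeq table (GRCm38.p6).

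The 40 genes and the other lists were chosen with earlier results of these data known. Every array's value is given for genes with an unadjusted p under 0.05, for Aurka, Aurkb, Plk1, Birc5, Bub1, Top2a and Mki67, and for the smallest p and lowest difference in each role group; Bub1b, Kif11 and Anln were added after their values were seen. Of each other list up to 3 genes with the smallest p are named, and Pcna, Mcm2, Cdk1, Foxm1, Mybl2 and Rbl2 whatever their result; Ccnb1 had no probeset of its own. Alternatives were the filter, normalization, probeset rule, variance model, array weights, a replicate block and leaving out each array. The probeset rule could not change the difference of any mitotic gene tested. Only Top2a had a second probeset, and that probeset was removed by the filter before averaging. The labels do not say whether the numbers of the arrays mark a shared litter, batch or day. Deviations of same-numbered arrays correlated at 0.289, 0.019 and 0.193, and those of differently numbered arrays at -0.282 to 0.101. Each array correlated most with its own number, except G-CSF replicate 2, at 0.101 with PBS replicate 3.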

Additional observations from a re-analysis of the deposited data

How the results depend on the processing

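Over 14 alternative settings, 0 of the mitotic genes passed an adjusted p of 0.05 (smallest adjusted p = 0.162, with quantile normalization again), and the median difference stayed above 0. The median was 0.424 with the dimmest 50% of probesets left out and 0.160 to 0.380 when 1 array was left out. The number of genes with all G-CSF arrays above was 8 to 13 over the settings, and counts of 10 to 13 arose only when 1 array was left out. With fewer arrays the groups separate more easily in any gene. The shares of all genes without overlap in these settings are not given here, so the counts above and below are a description. The number with all G-CSF arrays below was 0 to 3 when 1 array was left out: Cenpk, Ckap2 and Prc1 without PBS replicate 2, Mad2l1 and Spc24 without G-CSF replicate 2, Spc24 without PBS replicate 1, Mad2l1 without PBS replicate 3 and Ect2 without G-CSF replicate 1. Of 17 named genes tested, 3 changed sign. Plk4 was -0.002 with arrays centred on the median, -0.012 with array weights and -0.144 to 0.133 when 1 array was left out. Aurkb was -0.175 to 0.236 and Cenpk -0.866 to 0.058 when 1 array was left out. The cause was not tested. A replicate block was tried although the labels give the numbers no meaning. With it, 11 genes were higher and 1 (Mad2l1) lower at an unadjusted p under 0.05 by limma, against 8 and 0 without it. The block changes the fit of every gene, and the shares of all genes at that level with it are not given here. Whether the rise in the count was particular to the mitotic genes was not tested. The median was 0.213. Every array except G-CSF replicate 2 deviated most like the array of its own number. The count at an unadjusted p under 0.05 was followed over the settings after seeing the data and ran from 6 without PBS replicate 2 to 11. It too stands without the share of all genes in each setting. With 3 arrays per group, their number limits the precision, and levels under the filter's limit are close to the dimmest probesets.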
